A study of Bos taurus with 8 samples.

Results

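Vascular endothelial cells (VECs) of calf muscle were compared with those of adult muscle. The cells were those that the deposited annotation calls VECs in the library of freshly digested muscle, 1166 of its 4395 cells, against 36129 cells in the whole series. They came from 5 calves (799 VECs) and 5 adults (367 VECs), and the raw counts of all VECs of an animal were summed, so that the animal and not the cell was the replicate. All animals were Belgian Blue cattle, a beef breed with doubled muscles, and the muscle was the semitendinosus of the hind leg. Calves 2, 4, 5 and 7 were female and calf 10 was male. Adults 1, 3 and 9 were female and adults 6 and 8 were male. No animal was treated, and no ages beyond calf and adult were given. The study followed muscle cells from tissue into culture for cultured meat. Cells of all 10 animals were released with collagenase, pooled in equal parts and run as 1 library per timepoint, and each cell was assigned to its animal from single nucleotide polymorphisms, so no library separated the age groups. The second library used here holds the same animals, except adult 3, after 72 h in serum-free culture (passage 0). The labels list runs 1 and 2 for passage 0, and run 1 alone was used.

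Endothelial cells line the blood vessels. They regulate vessel tone through nitric oxide, control the passage of nutrients, water and leukocytes, and take up fatty acids for the muscle fibres through a dense capillary bed. In a growing animal the muscle bed expands with the fibres, while in an adult most endothelial cells are quiescent. Endothelium differs between arteries, capillaries and veins, and flow, bone morphogenetic protein (BMP) and Notch signals help to keep it in its mature state.

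The label fitted the markers. PECAM1 and CDH5, which mark endothelium of blood and lymph vessels alike, were at 868 and 662 CPM in all VECs together. They were at 569.6 and 477 in the cells annotated as lymphatic. In all muscle cells other than VECs, the lymphatic cells included, they were at 28.8 and 22.1. VWF, a gene of blood endothelium, was at 539.8 CPM in VECs, 47.5 in the lymphatic cells and 8.35 in all other cells. The lymphatic genes LYVE1, PROX1 and CCL21 were at 5.13, 2.93 and 1.71 CPM, against 2520.3, 235 and 6682 in the cells annotated as lymphatic. Here CPM (counts scaled to a common total) is computed from unique molecular identifiers (UMIs), which count RNA molecules. From this point on it is given per animal, with library sizes scaled by the trimmed mean of M-values (TMM). An animal gave 57 to 311 VECs and 206284 to 1042240 UMIs, so the animal with fewest VECs (adult 1) has the coarsest values. The calf sums held 353772 to 1042240 UMIs and the adult sums 206284 to 331580, so every adult sum was shallower than every calf sum. With all sums thinned to the smallest, 26 of the 36 genes described below could be tested and 17 were called. Of the 9 not called, ITM2C had a smaller difference there (log2, 0.79 against 1.06), and the others stayed close to their values at full depth, such as CRIP1 (-1.82 against -1.88) and ASS1 (-1.27 against -1.26).

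No difference between the ages was detected in the share of VECs or in the UMIs and genes per VEC. VECs made up 35, 42.3, 11.5, 23.4 and 24.4% of the cells of calves 2, 4, 5, 7 and 10, and 22.9, 35.2, 16.6, 27.0 and 30.6% of those of adults 1, 3, 6, 8 and 9. The groups overlapped throughout. The difference of 0.858 percentage points lay within the spread between animals (exact permutation test over 10 animals, 2-sided, p = 0.889, adjusted p = 0.984 over the 20 of 21 measures that could be tested). The smallest p that 5 against 5 allows is 0.00794. A VEC of calves held a median of 1307 ± 156 genes and one of adults 1308 ± 74.5 (mean ± SD of the animals' medians, n = 5 each; exact p = 0.984). With every VEC thinned to 1000 UMIs, which 728 calf and 333 adult VECs reached, 70.0 ± 7.81% of calf and 73.6 ± 8.88% of adult VECs held a UMI of an arterial gene (exact p = 0.484). For venous genes the shares were 91.6 ± 5.07% and 93.0 ± 4.91% (exact p = 0.651), and for capillary genes 99.1 ± 1.38% and 99.7 ± 0.630% (exact p = 0.444). Unthinned, the shares were 92.1 ± 3.30% and 92.1 ± 3.56% for arterial genes and 95.3 ± 3.40% and 95.4 ± 2.28% for venous genes, and each VEC held a capillary UMI. Since nearly every cell held a UMI of each kind, these shares do not sort the cells into vessel types.

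RNA of other cell types in the VECs was scarce in both groups. The 12 mural genes (pericytes and smooth muscle) took 0.199 to 0.303 of 1000 UMIs in calves and 0.131 to 0.199 in adults (exact p = 0.0159, adjusted p = 0.317), with 1 gene at 0. The 21 muscle fibre genes took 0.850 to 2.56 in calves and 0.674 to 1.03 in adults (exact permutation test, adjusted p = 0.444). For the 12 genes of fibro-adipogenic progenitors (FAPs), the connective tissue progenitors, the ranges were 0.495 to 2.24 and 0.714 to 2.56 (exact permutation test, adjusted p = 0.886). Satellite cell genes took at most 0.341, genes of macrophages and neutrophils at most 0.114, lymphocyte genes at most 0.0873 and red blood cell genes at most 0.0194 of 1000 UMIs in any animal, and glial genes 0.319 to 0.937 (exact permutation tests, adjusted p from 0.444 to 0.811). The part of this RNA in the differences below was not tested.

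Calf and adult VECs differed at 36 of 4522 genes, 0.796% of those tested, at an adjusted p below 0.05 and a difference over 2-fold (edgeR's quasi-likelihood test, 2-sided, Benjamini-Hochberg adjustment over all genes tested). In calves 11 genes were higher (0.243%) and 25 were lower (0.553%). With no limit on the size of the difference 86 genes passed (1.9%), 26 higher and 60 lower. The median difference over all genes was -0.01 on the log2 scale, where 1 stands for 2-fold and a positive value means higher in calves. Of the 36 genes, 32 had calf and adult values that did not overlap, which 3.58% of all tested genes also showed. In these sums, fewer VECs of a subtype and less RNA per cell cannot be told apart.

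**Figure D1:**
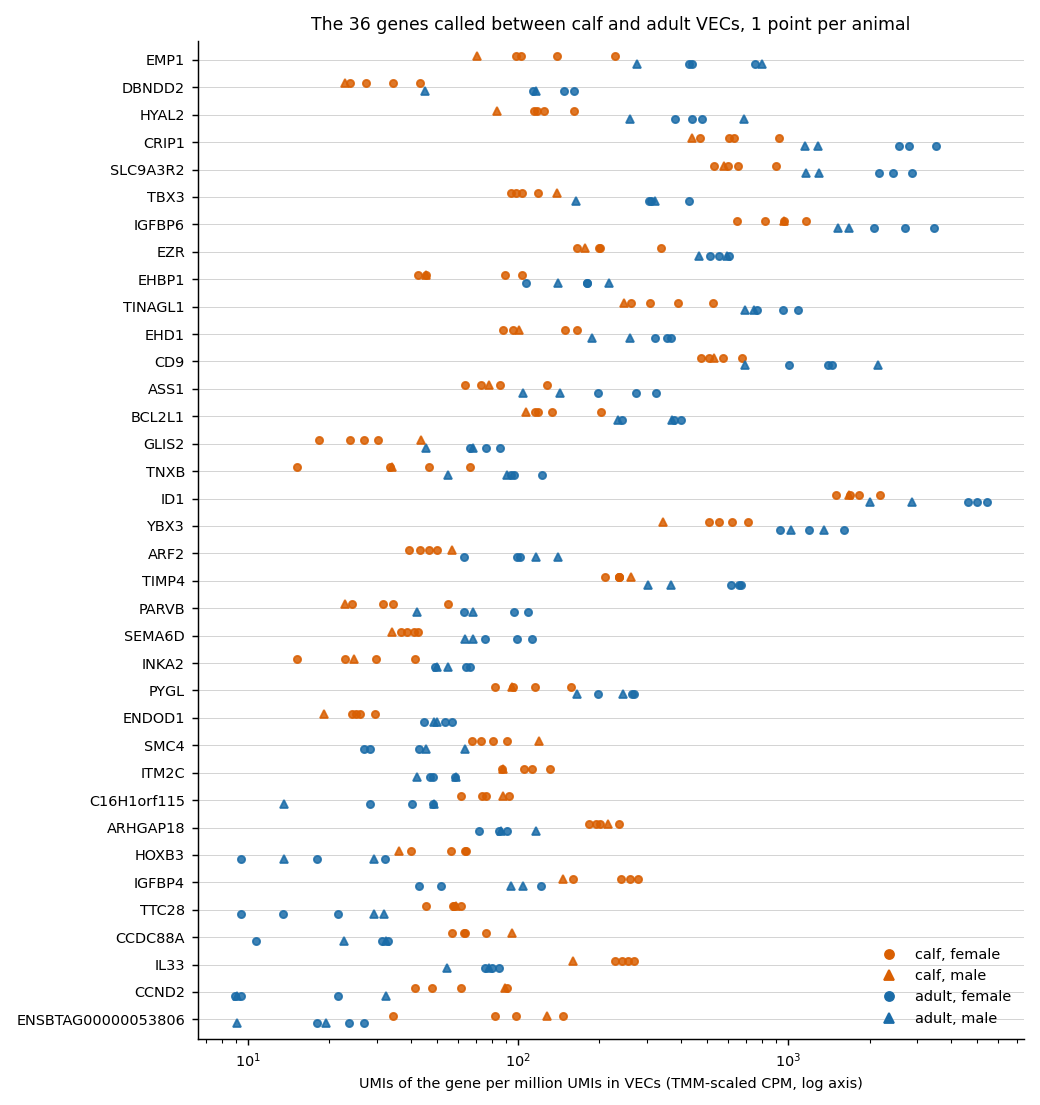
TMM-scaled CPM (log axis) of the 36 genes in the VECs of each animal, with 1 point per animal, calves in orange, adults in blue, females as circles and males as triangles. Genes are ordered from the largest fall to the largest rise in calves. Calf and adult points separate in 32 of the 36 genes.

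**Figure D2:**
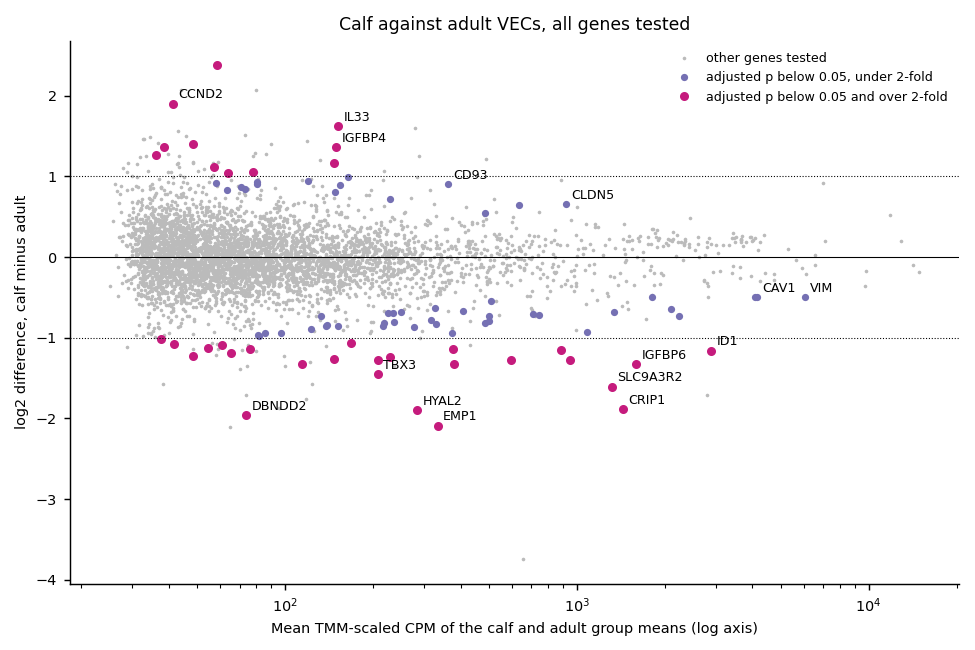
Difference between calf and adult VECs (log2) against the mean CPM of the gene (log axis), 1 point per gene for the 4522 tested. The 36 magenta points beyond the dotted lines at 2-fold were called, 25 below and 11 above, and the smaller purple points passed the adjusted p alone.

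HYAL2, EMP1 and CD9, which encode membrane proteins, were called lower in calves. HYAL2 encodes a hyaluronidase anchored in the plasma membrane, which cleaves hyaluronan of the endothelial surface layer. In calves 2, 4, 5, 7 and 10 it was at 114, 125, 161, 118 and 83.7 CPM, and in adults 1, 3, 6, 8 and 9 at 477, 381, 685, 259 and 439 CPM, in the animal order that is kept below. Every adult was above every calf, and the difference was -1.90 ± 0.23 (log2, SE; edgeR adjusted p = 4.31e-04). EMP1, a membrane protein of the PMP22 family, had 103, 139, 228, 98 and 70.4 CPM in the calves and 439.7, 430.4, 798, 276 and 755 CPM in the adults. Its groups did not overlap and its difference was the largest among the falls, -2.09 ± 0.38, but the spread between animals was wide and the edgeR adjusted p was 0.0287. CD9, a tetraspanin that organises membrane proteins, ranged over 475 to 676 CPM in calves and 690.4 to 2140.0 CPM in adults (difference -1.27, edgeR adjusted p = 0.0212). The lowest adult lay just above the highest calf. The 4 other tetraspanins read for comparison, which were chosen after their values were seen, had differences of -0.08 (CD63), 0.08 (CD81), -0.07 (CD82) and -0.29 (CD151), and none passed (edgeR adjusted p from 0.429 to 0.890).

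Ezrin and a scaffold that binds it were both lower in calves. EZR encodes ezrin, which ties membrane proteins to cortical actin together with its relatives radixin and moesin. It was at 164, 337, 201, 199 and 177 CPM in calves and 515, 605, 594, 467 and 552 CPM in adults. The groups were apart, with calf 4 above the other calves, and the difference was -1.32 ± 0.18 (edgeR adjusted p = 4.31e-04). SLC9A3R2 (NHERF2), a PDZ scaffold that links membrane proteins to ezrin, was at 651, 596, 529, 899.5 and 576 CPM in calves and 2434, 2166, 1165, 1297 and 2865 CPM in adults. All adults were above all calves, the adult males 6 and 8 were the lowest adults, and the difference was -1.61 ± 0.25 (edgeR adjusted p = 0.00839). The rest of the family was read after its values were seen. Radixin (RDX) was at 528, 539, 529, 554 and 542 CPM in calves, and at 944, 807, 902, 716 and 1029 CPM in adults, and its difference of -0.71 ± 0.13 passed the test below 2-fold (edgeR adjusted p = 0.00690). Moesin (MSN) did not pass (-0.24 ± 0.14, adjusted p = 0.467), and neither did the second scaffold SLC9A3R1 (-0.09 ± 0.35, adjusted p = 0.946). PODXL, a sialomucin of the luminal membrane that binds such scaffolds and ezrin, had 89.1 to 108 CPM in calves and 136 to 227 CPM in adults (-0.85 ± 0.17, edgeR adjusted p = 0.0118).

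EHD1 and EHBP1, a pair of partners in membrane traffic, were called lower in calves, and their relatives were read after their values were seen. EHD1, an ATPase of endocytic recycling, was at 148, 165, 88.1, 95.6 and 101 CPM in calves and 322, 354, 258, 188 and 368 CPM in adults (-1.28 ± 0.21, edgeR adjusted p = 0.00309). EHBP1, which binds EHD proteins and actin, had 42.5 to 103 CPM in calves and 107 to 217 CPM in adults (-1.32, adjusted p = 0.0114). Neither gene's groups overlapped. PACSIN2, a membrane-bending partner of EHD proteins at caveolae, passed below 2-fold (-0.87 ± 0.19, adjusted p = 0.0160). So did CAV1, the main coat protein of caveolae, with 3124 to 3728 CPM in calves and 3802 to 5259 CPM in adults (-0.49 ± 0.11, adjusted p = 0.0276). EHD2, which sits at the neck of caveolae, differed by -0.33 ± 0.12 and did not pass (adjusted p = 0.191), although its groups did not overlap. EHD4 was at -0.11 (adjusted p = 0.850). The small GTPase ARF2 (-1.13, adjusted p = 0.00839), the focal adhesion protein PARVB (-1.13, adjusted p = 0.0484) and INKA2 (-1.08, adjusted p = 0.0450) were called lower, PARVB with overlapping groups, while its relative PARVA was at 0.09 (adjusted p = 0.860). Below 2-fold, RHOC (-0.81), ANXA2 (-0.72), PLEC (-0.67), AHNAK (-0.50) and VIM (-0.50) also passed in this direction (edgeR adjusted p from 0.00839 to 0.0495).

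CRIP1 and DBNDD2 fell by amounts close to that of HYAL2. CRIP1, a small LIM domain protein, was at 605, 470.3, 629, 926 and 441 CPM in calves and 3517, 2560.3, 1152, 1293 and 2794 CPM in adults. Calves and adults did not overlap, and adults 6 and 8, the males, were again between the calves and the adult females (-1.88 ± 0.36, edgeR adjusted p = 0.0391). DBNDD2, a dysbindin domain protein, was at 43.4, 23.9, 27.3, 34.3 and 22.8 CPM in calves and 161, 148, 45.3, 117 and 113 CPM in adults (-1.96 ± 0.28, adjusted p = 6.67e-04). Adult 6 lay just above calf 2 and the other adults were far above. BCL2L1, which protects cells from apoptosis, had 107 to 203 CPM in calves and 233 to 401 CPM in adults (-1.24, adjusted p = 0.00309). YBX3, a cold shock protein that binds RNA, had 342 to 711 and 935 to 1603 CPM (-1.16, adjusted p = 0.00281), PYGL, a glycogen phosphorylase, 82.2 to 157 and 165 to 268 CPM (-1.07, adjusted p = 0.00555), and ENDOD1 19 to 29.4 and 44.8 to 56.6 CPM (-1.02, adjusted p = 0.0418). None of these 4 had overlapping groups.

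Of the transcription factors named here, TBX3 and GLIS2 were called lower and HOXB3 higher. TBX3, a T-box factor of development, was at 98.2, 118, 94.2, 103 and 139 CPM in calves and 311, 305, 163, 321 and 429.5 CPM in adults, with no overlap and adult 6 lowest among the adults (-1.45 ± 0.20, edgeR adjusted p = 5.27e-04). GLIS2, a zinc finger factor, had 18.3 to 43.8 CPM in calves and 45.4 to 85.8 CPM in adults (-1.22, adjusted p = 0.0212). HOXB3, a homeobox factor of position along the body axis, was higher in calves, at 64, 40.2, 63.8, 56.4 and 36.1 CPM against 32.2, 17.9, 13.6, 29.2 and 9.44 CPM (1.27 ± 0.33). It rests on 128 calf and 24 adult UMIs and its edgeR adjusted p was 0.0495, at the limit. Its neighbours in the cluster, chosen after their values were seen, were at -0.13 (HOXB2) and 0.07 (HOXB4) and did not pass (adjusted p = 0.882 and 0.951).

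ID1 and ID2, which block basic helix-loop-helix factors and are direct targets of BMP signalling in endothelium, were lower in calves. ID1 was at 1697, 2186, 1504, 1833 and 1672 CPM in calves and 5003, 4627, 2008, 2859 and 5433 CPM in adults. The groups overlapped, because adult 6 lay below calf 4, and the adult females were all above the adult males (-1.16 ± 0.25, edgeR adjusted p = 0.0418). ID2 was at 562, 415, 689.8, 639.7 and 498 CPM in calves and 1190.3, 834, 784, 829.8 and 982 CPM in adults with no overlap (-0.72 ± 0.16, adjusted p = 0.0190). ID3 differed by -0.53 ± 0.16 and did not pass (adjusted p = 0.113). Of the 18 genes listed for BMP and TGF-beta signalling 13 were tested, 4 with a positive and 9 with a negative difference (median -0.18). ID1 was the 1 member called, and ID2 passed below 2-fold. The receptors ACVRL1 (-0.08), BMPR2 (-0.18) and ENG (-0.26) and the inhibitor SMAD7 (0.07) did not pass (adjusted p from 0.501 to 0.966). TGFB2, a ligand outside the list, was lower in calves (-0.97 ± 0.25, adjusted p = 0.0483).

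**Figure D3:**
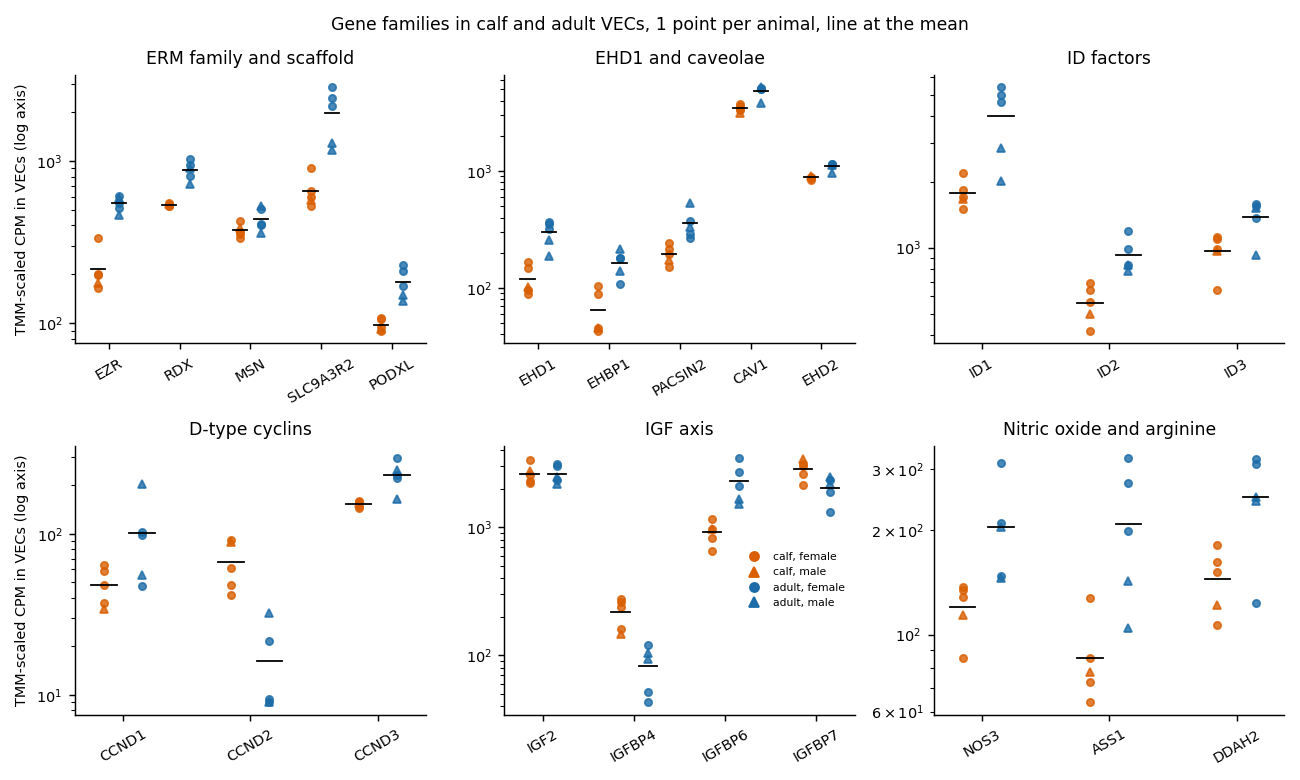
TMM-scaled CPM (log axis) of gene families in the VECs of each animal, with 1 point per animal, calves in orange, adults in blue, males as triangles, and a line at each group's mean. CCND2 lies higher in calves while the means of CCND1 and CCND3, which did not pass, lie lower, and IGFBP4 and IGFBP6 lie on opposite sides while the means of IGF2 lie at the same height.

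A pair of IGF binding proteins was called in opposite directions. IGFBP6, which binds IGF2 with preference, was at 966, 820.0, 647, 1159 and 966 CPM in calves and 3474, 2704, 1528, 1673 and 2077 CPM in adults (-1.33 ± 0.22, edgeR adjusted p = 0.00953). IGFBP4, which restrains IGF action until it is cleaved, was at 260.4, 277, 240.0, 159 and 146 CPM in calves and 42.9, 121, 104, 94 and 51.9 CPM in adults (1.37 ± 0.26, adjusted p = 0.0105). Neither gene overlapped between the ages. IGFBP7 was at 0.49 ± 0.16 (adjusted p = 0.141), and IGFBP3 and IGFBP5 varied too much between animals for a statement (SE 0.76 and 1.15). IGF2, a fetal growth factor, did not differ detectably, at 2623 ± 456 CPM in calves and 2616 ± 411 CPM in adults (mean ± SD, n = 5 each; 0.00 ± 0.14, adjusted p = 0.996). Of the 15 IGF axis genes 7 were tested, 6 with a positive difference (median 0.24), and 1 was called in each direction.

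Cyclin D2 (CCND2), which drives entry into the cell cycle, was at 61.7, 47.8, 91.2, 41.7 and 89.4 CPM in calves and 21.4, 8.97, 9.07, 32.4 and 9.44 CPM in adults. No adult reached the lowest calf, the values rest on 165 and 20 UMIs, and the difference was 1.90 ± 0.37 (edgeR adjusted p = 0.00953). The other D-type cyclins had negative differences that did not pass, -1.09 ± 0.35 for CCND1 (adjusted p = 0.149) and -0.60 ± 0.16 for CCND3 (adjusted p = 0.0579), of which CCND3 did not overlap between the groups. SMC4, a condensin subunit, had 67.3 to 119.9 CPM in calves and 26.9 to 63.5 CPM in adults (1.04, adjusted p = 0.0418). With VECs held to stricter markers its difference was 0.46 and the call was lost (edgeR adjusted p = 0.498). Its partner SMC2 was at 1.09 ± 0.59 and did not pass (adjusted p = 0.436). Of the 31 cell cycle genes 13 were tested, 7 with a positive difference (median 0.01), and CCND2 was the 1 called. The most abundant members, TUBA1B (-0.20 ± 0.20) and STMN1 (-0.00 ± 0.45), did not pass (adjusted p = 0.707 and 0.997). Ki-67 (MKI67) and TOP2A were too low to test, at 31 ± 25.4 and 36 ± 25.7 CPM in calves and 5.18 ± 9.88 and 15.7 ± 24.4 CPM in adults (mean ± SD, n = 5 each).

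IL33 was called higher in calves. IL33, a cytokine that endothelial cells store in the nucleus and release on damage, was at 228, 255, 267, 243 and 159.8 CPM in calves and 75.1, 85.2, 54.4, 77.8 and 80.2 CPM in adults. The difference was 1.62 ± 0.19 (edgeR adjusted p = 1.09e-04). Its receptor IL1RL1 had no UMI in the VECs of any animal, which allows at most 3 UMIs in 4090352 (counting error only). ARHGAP18, a GTPase-activating protein, was at 235, 182, 194, 201 and 215 CPM in calves and 91.2, 71.7, 86.1, 117 and 85 CPM in adults, again with no overlap (1.17 ± 0.17, adjusted p = 6.67e-04). CCDC88A (girdin), an actin-binding protein of cell migration, had 57.1 to 95.1 CPM in calves and 10.7 to 33 CPM in adults (1.40, adjusted p = 0.00993). TTC28 (1.37, adjusted p = 0.0160), C16H1orf115 (1.12, adjusted p = 0.0300) and the membrane protein ITM2C (1.06, adjusted p = 0.00953) were called higher without overlap. The largest rise was in a gene with no symbol in the files, ENSBTAG00000053806, at 34.3, 147, 82, 98 and 127 CPM in calves and 26.8, 17.9, 9.07, 19.4 and 23.6 CPM in adults (2.38 ± 0.41, adjusted p = 0.00839), with calf 2 far below the other calves.

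CD93, CLDN5, PTGER4 and MECOM were higher in calves by less than 2-fold, and were chosen for naming after their values were seen. CD93, a lectin-like receptor of sprouting endothelium, had 405 to 519.6 CPM in calves and 198 to 305 CPM in adults (0.91 ± 0.16, edgeR adjusted p = 0.00363). CLDN5, the main claudin of endothelial tight junctions, had 837 to 1299.6 and 483 to 949 CPM with overlap (0.66 ± 0.16, adjusted p = 0.0421). The prostaglandin receptor PTGER4 (0.95, adjusted p = 0.0160) and the transcription factor MECOM (0.83, adjusted p = 0.0495) were also higher. CLDN5 was the 1 of 22 endothelial identity genes to pass. Of these 12 had a positive and 10 a negative difference (median 0.02), with EGFL7 at -0.20 and PECAM1 at -0.16 (adjusted p = 0.662 and 0.679).

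TINAGL1, TIMP4 and TNXB, which encode secreted proteins of the matrix, were called lower in calves. TINAGL1, a matricellular protein of basement membranes, was at 308, 525, 261, 392 and 247 CPM in calves and 767, 1085, 689, 746 and 958 CPM in adults (-1.28 ± 0.20, edgeR adjusted p = 0.00281). TIMP4, an inhibitor of matrix metalloproteinases, was at 235, 236, 209.7, 235 and 263 CPM in calves and 611, 668, 367, 301 and 656 CPM in adults (-1.13 ± 0.20, adjusted p = 0.00484). Both separated the groups. TIMP3 was at -0.79 ± 0.22 and TIMP2 at -0.39 ± 0.32, neither past the test (adjusted p = 0.0749 and 0.623). TNXB (tenascin X) was called with overlapping groups, 15.2 to 66.2 CPM in calves and 55.1 to 123 CPM in adults (-1.19, adjusted p = 0.0391). FAPs held 943 CPM of TNXB and all VECs together 49.9. SEMA6D, a transmembrane guidance protein, had 34.2 to 42.5 and 63.5 to 112 CPM (-1.09, adjusted p = 0.0115). In contrast, 11 of 16 tested basement membrane genes (median 0.23) and 6 of 8 tested genes of the interstitial matrix (median 0.36) had positive differences, and none of them passed. SPARC (-0.32), COL4A1 (-0.12) and SERPINH1 (0.41), their most abundant members, had adjusted p of 0.263, 0.839 and 0.225.

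ASS1, which makes the arginine precursor that endothelial cells recycle for nitric oxide, was at 73.1, 85.8, 63.8, 127 and 78 CPM in calves and 273, 323, 104, 143 and 198 CPM in adults. Adult 6 fell below calf 7, and the difference was -1.26 ± 0.28 (edgeR adjusted p = 0.0360). The nitric oxide synthase NOS3 had 85.8 to 137 CPM in calves and 146 to 312 CPM in adults without overlap, and did not pass (-0.77 ± 0.21, adjusted p = 0.0579). DDAH2, which degrades an inhibitor of the synthase, was at -0.81 ± 0.21 (adjusted p = 0.0593), and ASL at -0.60 ± 0.31 (adjusted p = 0.391). Of the 18 shear-responsive and vasoregulatory genes 10 were tested, 7 of them with a negative difference (median -0.35), and ASS1 was the 1 called. KLF6 (-0.34), KLF4 (-0.36) and KLF2 (-0.34) did not pass (adjusted p = 0.668, 0.504 and 0.786).

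The remaining lists held no called gene. Against the background of 0.796% called, 35 of the 40 lists had 2 or more members tested, and the members' differences are plotted list by list. Of the arterial genes 9 were tested (median -0.13; CXCL12 0.17, MGP -0.24), of the capillary genes 14 (median -0.28; FABP5 -0.35, CAV1 as above) and of the venous genes 9 (median 0.26; CCL14 0.26, VWF 0.72). VWF, the clotting factor carrier, had 923, 787, 729, 336 and 468 CPM in calves and 300.3, 399, 458, 415 and 387 CPM in adults, with calf 7 inside the adult range (adjusted p = 0.156). Of the genes for fatty acid uptake and caveolae 13 were tested, 9 with a negative difference (median -0.33), and CAV1 was the 1 to pass. Coagulation genes had a median of -0.41 over 8 (TFPI2 -0.50, adjusted p = 0.369), with ANXA2 the 1 to pass. The 17 tested genes of VEGF, angiopoietin and sprouting had a median of -0.00 (RAMP2 -0.04, NRP1 0.34), the 12 Notch genes -0.01 (HES1 0.45, JAG1 0.24) and the 9 guidance genes 0.14 (NRP1, and ROBO4 0.14). No member of these 3 lists passed.

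**Figure D4:**
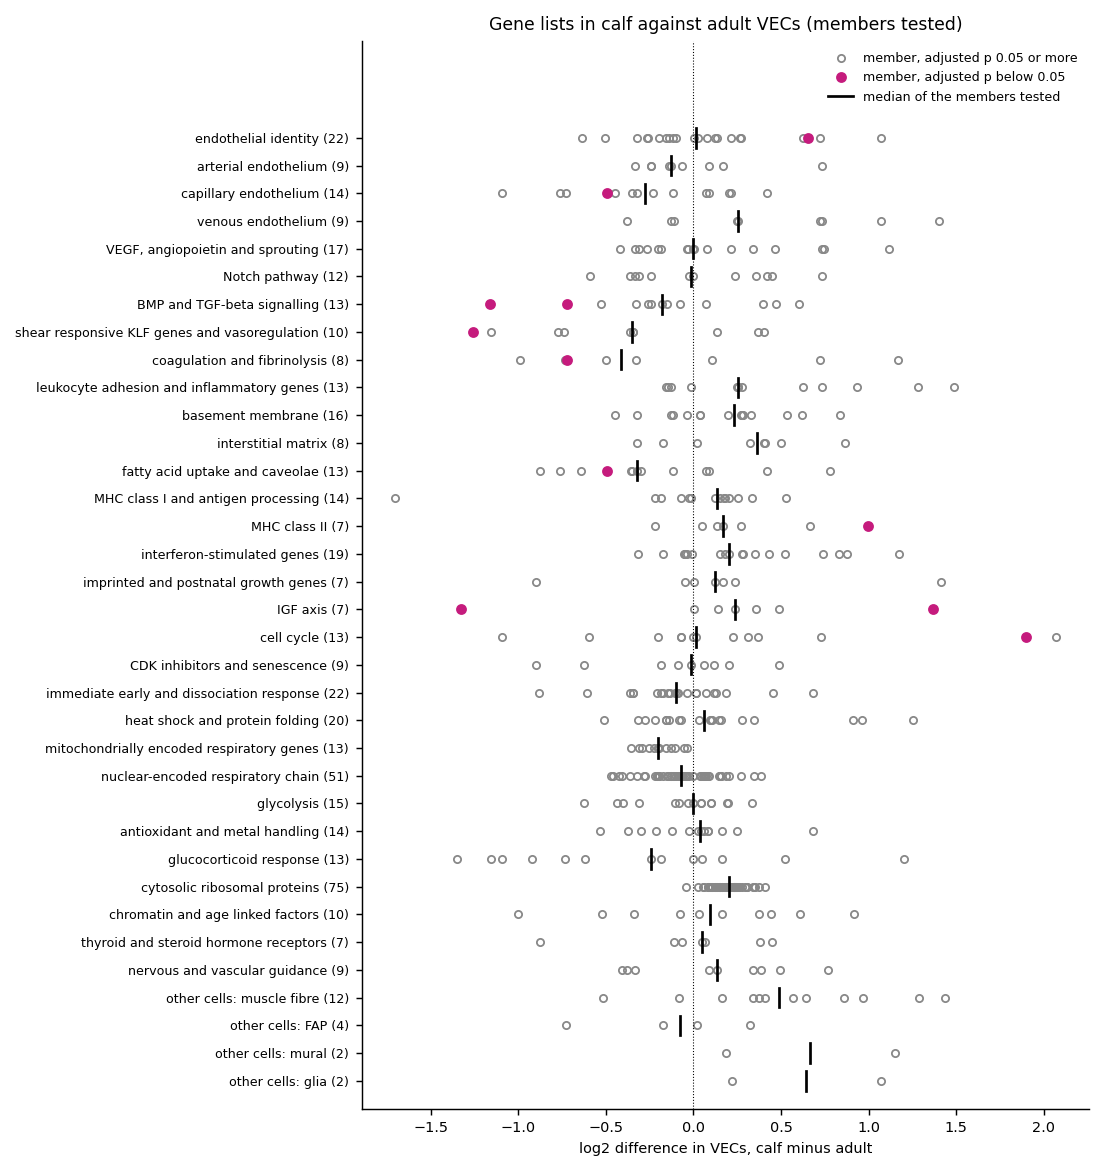
Difference between calf and adult VECs (log2) of every tested member of the gene lists with at least 2 tested members, 1 point per gene, with the number tested in brackets and a bar at the median. Filled points passed at an adjusted p below 0.05. Ribosomal protein genes lie in a narrow band with 74 of 75 above 0.

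The immune lists held 1 gene past the test. Of the 14 tested MHC class I genes (median 0.14) none passed (B2M -0.19, adjusted p = 0.484; BOLA 0.53, adjusted p = 0.630), and reads of these near-identical genes may have been split between copies. Of 7 tested MHC class II genes (median 0.17) BOLA-DMA passed just below 2-fold (1.00 ± 0.18, edgeR adjusted p = 0.00456), with 198 to 264 CPM in calves and 81.6 to 139 CPM in adults. With sex in the model its adjusted p was 0.00381. Its partner BOLA-DMB was at 0.66 (adjusted p = 0.155), CD74 at 0.17 and BOLA-DRA at 0.27. Leukocyte adhesion and inflammatory genes had a median of 0.26 over 13 (CXCL3 0.26 ± 0.37) and interferon-stimulated genes 0.20 over 19 (IFI27 0.20 ± 0.54, IFI6 0.43 ± 0.27), with none past the test.

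Growth, stress and housekeeping lists gave small medians. Imprinted and postnatal growth genes had a median of 0.12 over 7 (CDKN1C -0.90 ± 0.25, adjusted p = 0.113) and cyclin-dependent kinase inhibitors and senescence genes -0.01 over 9. Immediate early genes, which respond to tissue dissociation, had -0.10 over 22 (JUN -0.21, JUNB -0.17), heat shock genes 0.06 over 20 (HSPA1A 0.91 ± 0.46, HSPB1 -0.28 ± 0.15) and glucocorticoid response genes -0.24 over 13 (DUSP1 -0.19, TXNIP 0.16). Glycolysis genes had -0.00 over 15 (SLC2A3 -0.00, GAPDH 0.10), antioxidant genes 0.04 over 14 (FTH1 0.03), chromatin and age-linked factors 0.10 over 10 (HMGB1 0.37, LMNA -1.0 with adjusted p = 0.137) and hormone receptors 0.05 over 7 (NR3C1 0.05, NR2F2 -0.11). The 75 tested ribosomal protein genes had a median of 0.20, 74 of them positive (RPLP1 0.03, RPS28 -0.04). All 77 entries with a symbol of this list, 1 symbol being on 2 entries, took 172 to 202 of 1000 UMIs in calves and 137 to 186 in adults (exact permutation test, p = 0.0714, adjusted p = 0.444). All 13 mitochondrially encoded genes were negative (median -0.20; COX1 -0.10, COX3 -0.13), and 33 of 51 nuclear genes of the respiratory chain were negative (median -0.07; ATP5ME -0.36, COX4I1 -0.12). None of these genes passed on its own.

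The lists of other cell types also held no gene past the test. In VECs 10 of 12 tested muscle fibre genes had positive differences (median 0.49; ACTA1 0.37, TPM2 0.41), as did both tested mural genes (MYL9 0.18, ACTA2 1.15), both glial genes (S100B 0.22, CNP 1.07) and the satellite cell gene DES (0.37), while the 4 FAP genes were split (median -0.08; GSN -0.73, DCN -0.18). DLK1 was not tested, at 82 ± 62.6 CPM in calves and 31.1 ± 57.4 CPM in adults. No lymphatic, red blood cell, lymphocyte or macrophage and neutrophil gene was high enough in VECs to test. Their members of highest mean over the animals were at 5.13 (LYVE1), 3.42 (PDPN), 1.22 (HBB), 1.22 (HBQ1), 23.5 (CD52), 20.0 (LTB), 23 (CD68) and 10.8 (CD14) CPM in all VECs together.

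Among the 25 genes lower in calves, the 2 adult males were in some genes the adults nearest to the calves. They were the lowest 2 adults in 10 of the 25 genes lower in calves, against 9.77% of all tested genes. These were ASS1, CRIP1, EHD1, ID1, IGFBP6, SEMA6D, SLC9A3R2, TIMP4, TINAGL1 and TNXB. With sex in the model 54 genes were called, 20 higher and 34 lower, and 35 of the 36 were among them. HOXB3 was not, with an adjusted p of 0.0686. The adjusted p of CRIP1 went from 0.0391 to 1.50e-05, that of SLC9A3R2 from 0.00839 to 1.50e-05 and that of ID1 from 0.0418 to 4.82e-04 (edgeR). Among females alone, 4 calves against 3 adults, 28 of the 36 were called, and the difference was -2.17 for CRIP1, -1.89 for SLC9A3R2 and -1.47 for ID1. Those not called were ENSBTAG00000053806 (2.06), HOXB3 (1.48), CCDC88A (1.33), C16H1orf115 (1.00), INKA2 (-1.12), EHBP1 (-1.10), ENDOD1 (-0.96) and ARF2 (-0.94). Whether the age difference itself depends on sex was not tested, with 1 male calf.

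The calls did not all rest on the same animals. Leaving out 1 animal at a time gave 26 calls without adult 9 to 58 without adult 8, the 1 case that moved the count by over 1.5 times. EMP1, CRIP1 and ASS1 were called in 3 of the 10 such fits, ID1, TNXB, PARVB, SMC4 and HOXB3 in 2, INKA2 in 1 and ENDOD1 in 0. CD9, GLIS2 and C16H1orf115 were called in 5 of the 10. HYAL2, SLC9A3R2, EZR, EHD1, TBX3, IGFBP4, IGFBP6, IL33, CCND2, ARHGAP18, TIMP4 and TINAGL1 were among those called in all 10. A set of 506 VECs had no UMI of VWF, ACKR1, SELP, GJA5, SEMA3G or BMX (this selection was made after the results were seen). These genes were listed for veins or arteries, but VWF was also listed for endothelial identity. A VEC with few UMIs can lack them by sampling, so the selection does not sort VECs by vessel type, and it reuses the same cells. Of 1966 genes tested there 37 were called. Among them were 17 of the 18 of the 36 that could be tested. ID1 was the exception (-1.02, adjusted p = 0.0989), and the difference of HYAL2 shrank from -1.90 to -1.24. With VECs held to stricter markers, 32 of the 36 could be tested and 24 were called. ASS1, IGFBP6, INKA2, PARVB, PYGL, SEMA6D, SMC4 and TNXB were not. Except for SMC4 their differences stayed close to those above, from -0.92 for PYGL to -1.28 for IGFBP6.

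Whether the differences were particular to VECs was tested against the other cells of the same animals. Lymphatic endothelium is part of those other cells and was not compared by age on its own. A difference of VECs was therefore not told apart from one of endothelium in general. For 36 of 36 genes the calf to adult difference in VECs could be set against that in all other muscle cells, in a model with the animal as a block. Over 8275 genes the 2 differences were themselves different for 23 genes (0.278%), 4 with a higher and 19 with a lower value in VECs. The count ran from 5 without adult 9 to 35 without calf 2. On simulated counts the test made 9 false calls. It recovered 47 of 67, 60 of 67 and 65 of 66 changed genes there, for changes of 1.5, 2 and 3 (log2). Of the 23 genes, SLC9A3R2, DBNDD2, GLIS2, TBX3, EHD1 and ARF2 were the 6 that had also been called in VECs. For SLC9A3R2 the difference of differences was -2.16 ± 0.33 (edgeR adjusted p = 0.0253). It fell in calf VECs, was at 0.66 ± 0.32 in all other cells, and was higher in calves within FAPs (1.33 ± 0.31, adjusted p = 0.0339) and within smooth muscle and mesenchymal cells (1.15 ± 0.17, adjusted p = 0.00441). TBX3 and EHD1 had differences of -1.60 and -1.47 (adjusted p = 0.00171 and 0.00171), DBNDD2 and GLIS2 -1.87 and -1.82 (adjusted p = 0.0164 for both), and ARF2 -1.25 (adjusted p = 0.0253).

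IGF2 differed outside VECs. In the other cells it was at 1200.3 ± 38 CPM in calves and 566 ± 103 CPM in adults (1.08 ± 0.11, adjusted p = 0.00164), while no difference was detected in VECs, as given above. The difference of differences was -1.12 ± 0.16 (edgeR adjusted p = 0.00171). HPCAL1, a neuronal calcium sensor protein, was the reverse: it was lower in the other cells of calves (-1.37 ± 0.20, adjusted p = 0.0364) and at a difference near 0 in VECs (-0.03 ± 0.26), with a difference of 1.34. DDAH2 had opposite signs, -0.81 in VECs and 0.80 in the other cells, of which neither passed alone (difference -1.57 ± 0.23, adjusted p = 0.00171). CCND1 was alike (-1.09 and 0.88, difference -1.96, adjusted p = 0.0365). EZR, in contrast, was lower in calves within FAPs too (-1.62 ± 0.25, adjusted p = 0.00546), as was EMP1 (-0.71 ± 0.15, adjusted p = 0.0182). For HYAL2 (-1.18, adjusted p = 0.143), IL33 (0.43, adjusted p = 0.741) and CCND2 (1.60, adjusted p = 0.0637) the test against the other cells did not pass. The sum of other cells mixes types in proportions that differ by animal. With FAPs alone as the reference 42 genes were called, and without the block 10.

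The genes were not all highest in VECs. Among VECs, FAPs, satellite cells, smooth muscle and mesenchymal cells and lymphatic endothelial cells, 15 of the 36 were highest in VECs, 9 of those lower in calves and 6 of those higher. The share over all tested genes is not given here, so 15 cannot be read as many or few. ID1 was at 2278 CPM in all VECs together and at most 332 in the other 4, TIMP4 at 293 and at most 42.9, and IL33 at 169 and at most 50.6. IGFBP6 was highest in FAPs (5929 against 1202 CPM in VECs). HYAL2 was highest in lymphatic endothelium (449.8 against 198) and at most 17.9 CPM in the 3 types that are not endothelial. EMP1, CD9, IGFBP4, YBX3, PARVB and ENDOD1 were also highest in lymphatic endothelium. Smooth muscle and mesenchymal cells were highest for DBNDD2 (374 against 51.1 CPM in VECs), CRIP1 (1766 against 975), TINAGL1 (492 against 480), EHD1, INKA2, SEMA6D, ARF2 and GLIS2. FAPs were highest for CCND2, ITM2C and TNXB too, and satellite cells for CCDC88A and SMC4. CCND2 was lower in VECs (45.2 CPM) than in each of the other 4.

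**Figure D5:**
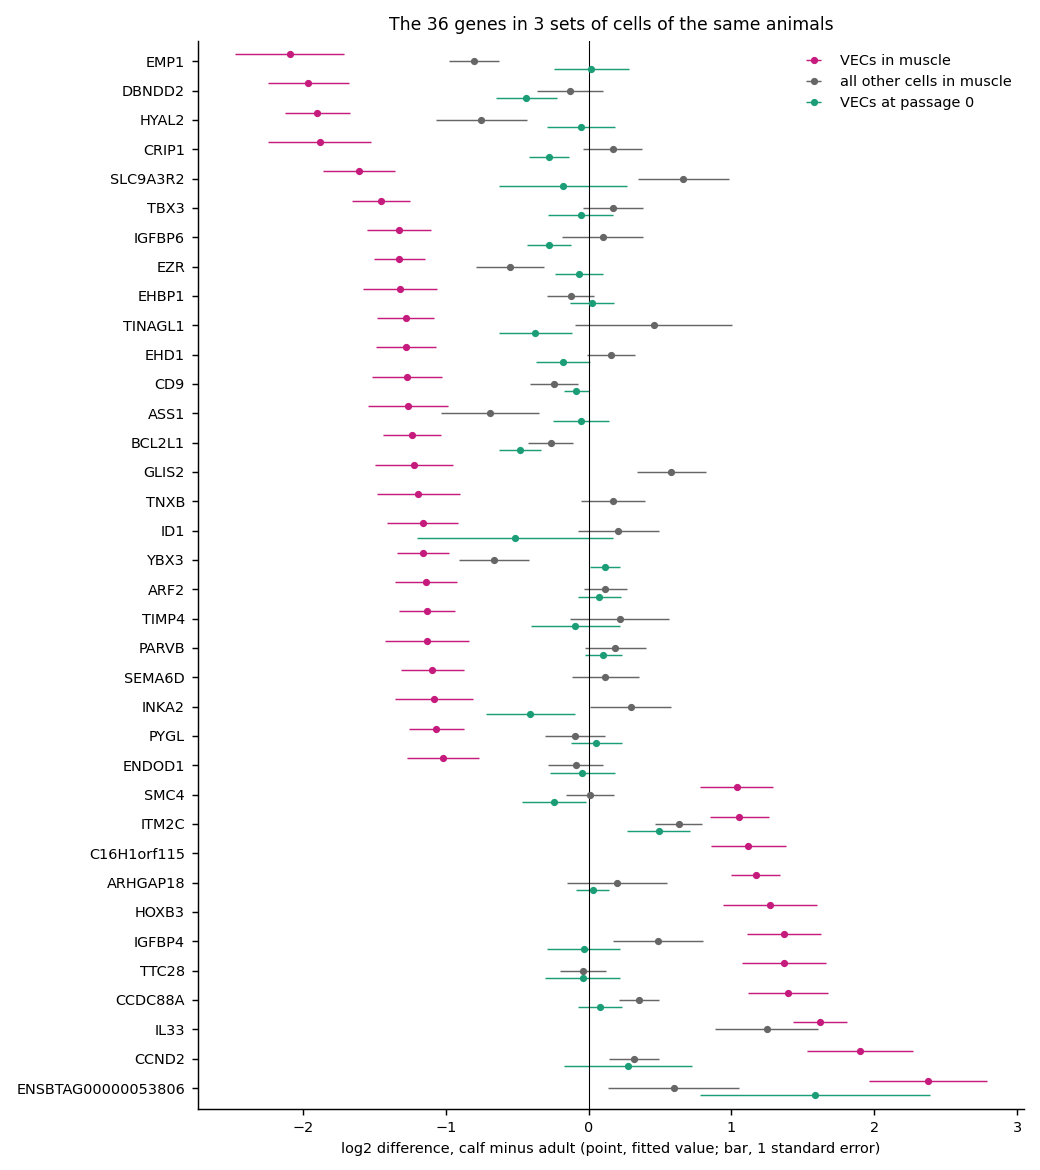
Difference between calves and adults (log2; bars, 1 standard error) of the 36 genes in muscle VECs, in all other muscle cells and in VECs after 72 h of culture, each from its own fit. Genes without a point were too low to test in that set. Of the 30 genes with a passage 0 point none was called there.

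After 72 h in culture no gene was called between calf and adult VECs. At passage 0 there were 531 VECs of the 5 calves and 300 of 4 adults (23 to 218 an animal). Of 7352 genes tested, 0 were called by edgeR's quasi-likelihood test (0%), 275 had an unadjusted p below 0.05, and DESeq2 called 3. Of the 36 genes 30 were tested there, 2 with an unadjusted p below 0.05. These were BCL2L1 (-0.48 ± 0.15) and ITM2C (0.49 ± 0.22). HYAL2 was at -0.05 ± 0.24, with 250.0 ± 50.7 CPM in calves and 257 ± 89.6 CPM in adults. EZR was at -0.07 ± 0.17, TBX3 at -0.06 ± 0.23 and CD9 at -0.08 ± 0.09. Farther from 0 were ENSBTAG00000053806 (1.58 ± 0.81), ID1 (-0.51 ± 0.68) and DBNDD2 (-0.44 ± 0.21). The 95% interval, from the spread between animals, held the muscle value for ENSBTAG00000053806 (-0.32 to 3.49), ID1 and INKA2. It left out the muscle value for 27 of the 30 genes. These genes had been chosen for large differences in muscle, and the error of the muscle value was not counted. The 27 are therefore not a test of a change between muscle and culture, which is given below.

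Many of these genes were also lower in cultured VECs. In 28 of the 36 the CPM over all VECs, calf and adult together, was lower at passage 0 than in muscle, and in 10 it was more than 10 times lower. Among all 4522 genes tested in muscle VECs the shares were 57.0% and 4.58%, against 77.8% and 27.8% of the 36, which had been chosen on their muscle values. SLC9A3R2 went from 948 to 36.7 CPM, ID1 from 2278 to 103, IGFBP6 from 1202 to 44.6 and IL33 from 169 to 1.63, which left IL33 too low to test. Over all VECs together, HYAL2 (198 and 235 CPM) and CD9 (731 and 1137 CPM) stayed as high or higher. For HYAL2 the ages moved in opposite directions. By the values given above, its mean at passage 0 was higher than in muscle for calves and lower for adults. The libraries are 1 each, so culture and library cannot be told apart. Set against each other in 1 model with the animal as a block (9 animals, chosen after the results were seen), the age difference itself differed between muscle and passage 0 for 1 of 7358 genes (0.0136%). This was HYAL2, with -1.93 ± 0.27 (edgeR adjusted p = 0.00335), while EZR (-1.24, adjusted p = 0.0613), CRIP1 (-1.49, 0.0613) and ARF2 (-1.33, 0.0628) did not pass.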

How the data were processed

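Per the labels and the study's methods, the authors aligned 10x Genomics 3′ reads with Cell Ranger 6.0.1 to the bovine build ARS-UCD1.2, assigned cells to animals with demuxlet, filtered cells and named cell types by cluster. The deposited matrix holds raw UMI counts per gene and cell, over 21880 genes of which 16828 carry a symbol, and the deposited cell table gives the mitochondrial percentage of each cell as the authors computed it. No doublet caller was run here. All animals share 1 library per timepoint, and so its free RNA. The 8 other columns of the cell table were not used. Age and sex follow the study's table of animals.

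UMI counts were summed per animal and tested with edgeR 4.0.16 (limma 3.58.1, R 4.3.3): filterByExpr, TMM, robust quasi-likelihood F test, 2-sided, Benjamini-Hochberg adjustment over all genes tested. Calls required more than 2-fold (above 1 in log2) besides an adjusted p under 0.05. The model for VECs against other cells has 20 sums with the animal as a block. Values per animal were compared by exact permutation of 5 against 5 (252 splits, SciPy 1.17.1), adjusted over the measures. Intervals cover counting error or the spread between animals, as stated. Alternatives were DESeq2 1.42.0, RLE size factors, no filter for low counts, thinning, sex, females alone, stricter cells, genes left out, other reference cells, no block and leaving out each animal. VECs without venous or arterial UMIs, and the model of muscle against passage 0, were added after seeing the data. On simulated counts, 59 of 67 changes of 1.5 (log2) were recovered for muscle VECs (88.1%). The shares were 62 of 67 (92.5%) for passage 0 and 47 of 67 (70.1%) for VECs against other cells. The simulated sets held 4522, 7352 and 8275 genes. No change below 1.5 was simulated, so the shares do not describe the smaller differences, among them many of those called in muscle VECs. For VECs against other cells, changed genes were drawn only from those with more UMIs in VECs, and no effect of the animal was simulated. That share therefore does not describe genes with few UMIs in VECs.

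Genes were named by a rule: the 12 largest called differences in each direction with a symbol, those without overlap first, called members of the gene lists, and the 2 most abundant members of each of 40 lists. Relatives of called genes, and genes past the adjusted p below 2-fold, were chosen after their values were seen. The comparison and lists were chosen with earlier results of these data known. In the files, 142 entries share a symbol with another.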

Additional observations from a re-analysis of the deposited data

Results flagged for a closer look

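In 3 of 82 tests for an animal far from the others of its group (5 animals each, where chance marks about 1 in 20), calf 4 stood above the other calves for BCL2L1 (203 CPM) and EZR (337 CPM), and calf 2 stood below them for TTC28 (45.7 CPM). Both values of calf 4 lay on the side of the adults, and without calf 4 both genes were still called.

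For 23 genes the calf minus adult difference in VECs differed from that in the other cells of the same animals, by the test of the difference itself (edgeR's quasi-likelihood test, animal as a block). The value was lower in VECs for C4A (-2.32), ENSBTAG00000006864 (-2.26), SLC9A3R2 (-2.16), CCND1 (-1.96), DBNDD2 (-1.87), GLIS2 (-1.82), IFI27 (-1.61), TBX3 (-1.60), DDAH2 (-1.57), PLXNA2 (-1.57), EHD1 (-1.47), ENSBTAG00000050846 (-1.40), ARF2 (-1.25), SYNGR2 (-1.13), IGF2 (-1.12), LMNA (-1.10), ADAM15 (-1.09), CLIC1 (-1.05) and DBN1 (-1.0). It was higher for RND3 (1.23), HPCAL1 (1.34), FAM78A (2.06) and PTGR2 (3.64). PTGR2 rests on 53 calf and 2 adult UMIs in VECs, a ratio of 11.6 with a 95% counting interval of 3.06 to 98.5, and its difference of differences ran from 3.36 to 7.44 on leaving out 1 animal. On simulated counts this test made 9 false calls among 8275 genes, and recovered 47 of 67, 60 of 67 and 65 of 66 changed genes.

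HYAL2 was the 1 gene whose difference in muscle VECs differed from that at passage 0 (-1.93).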

How the results depend on the processing

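Of the 36 genes called in VECs, 14 were called under every alternative in which they were tested, and 22 were not called in at least 1, though no sign turned. Among the 14, CCND2 was not tested when thinned or with stricter cells, and DBNDD2 not when thinned. CCND2, DBNDD2 and IL33 were not tested in the VECs without venous or arterial UMIs. Against 36 calls (11 higher and 25 lower in calves) there were 76 among females alone (36 and 40). Without the filter for low counts there were 116 (64 and 52, median of all genes 0.13), and by adjusted p alone 86 (26 and 60). The lean toward lower genes thus depended on the setting. Leaving out 1 animal gave 26 to 58. DESeq2 called 47, with 31 of the 36 among them. It gave no adjusted p for the other 5, CCND2, ENDOD1, HOXB3, INKA2 and TTC28, which were therefore not counted as tested by it. Thinning to the smallest UMI total gave 25 calls, with 17 of the 26 of these genes that could be tested among them. Of the 9 lost, ITM2C went to 0.79 and the others kept differences close to those at full depth. For VECs against other cells, 23 calls became 42 with FAPs as reference, where ENSBTAG00000050846 turned to 1.43, 129 without the filter and 10 with no replicate block. Calves and adults are different animals, so the block pairs cell classes of an animal, not ages. Leaving out 1 animal gave 5 to 35 calls in all. Among the 23 were 8 of 8 calls without adult 1, 8 of 9 without adult 3 and 10 of 12 without adult 6. It was 15 of 30 without adult 8 and 5 of 5 without adult 9. Without calves 10, 2, 4, 5 and 7 it was 10 of 13, 19 of 35, 7 of 9, 16 of 21 and 11 of 11. At passage 0, 0 calls became 3 with DESeq2, 3 without the filter and 0 to 1 on leaving out an animal (1 without adult 6). The causes were not tested. Every adult sum holds fewer UMIs than every calf sum, so depth and age move together.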

Other observations

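Complement C4A, a component of the classical pathway, was among the genes whose age difference in VECs differed from that in other cells, and it was too low to test within VECs alone (22 calf and 17 adult UMIs). Its difference in the other cells did not pass (1.25 ± 0.56, edgeR adjusted p = 0.435). Gene order was read from RefSeq on the ARS-UCD2.0 assembly, which is not the build of the files and served for order alone (49 of 53 genes matched). There, 5 genes lay between C4A and TNXB, 20 between C4A and CLIC1 and 21 between C4A and DDAH2. CLIC1 and DDAH2 were next to each other. BCL2L1 and ID1 had 1 gene between them, and ASS1 and FAM78A 12. Whether these genes lie closer together than other genes was not tested.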
